A study of Rattus norvegicus with 18 samples.

Results

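Chemokines, interleukins and their receptors were followed in the hippocampus of rats in a pair of models of temporal lobe epilepsy. Members were taken by symbol: every row of the count table whose name begins with Ccl, Ccr, Cxcl, Cxcr or Il and a digit, and Cx3cl1. Of 17455 genes in the table, 121 matched, and the 73 that had at least 10 counts in at least 3 libraries were kept. They comprised 35 ligands (23 chemokines and 12 interleukins) and 33 receptors or receptor subunits (9 for chemokines and 24 for interleukins). The other 5 were the antagonist Il1rn, the binding protein Il18bp, the decoy receptor Il1r2, and Il1rapl1 and Il1rapl2, synaptic proteins built like an interleukin receptor. A filter on low counts left 72 of them among 13338 genes tested, and Il2ra was kept but not tested.

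All animals were adult male Sprague-Dawley rats of about 170 to 280 g, and RNA came from the left hippocampus 24 hours after the last seizure. In the KA model, electrodes were implanted and kainic acid, a glutamate receptor agonist, was injected systemically in increments until status epilepticus began. In the KI model, the hippocampus was stimulated through implanted electrodes repeatedly each day until the rats were fully kindled. The labels divide each model into Sham and 3 Class V, without further definition, and what the shams received is not described in the sources used here. KA sham had 7 libraries, KA 3 Class V had 3, KI sham had 4 and KI 3 Class V had 4. The labels do not say that every library is a separate animal, so p-values measure the spread between these libraries, which may be partly technical.

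Chemokines are small secreted proteins that attract leukocytes by binding receptors coupled to G proteins, and Cx3cl1 is unusual in being made mainly by neurons as a membrane-bound protein. Interleukins signal through paired receptor chains to kinases and transcription factors such as JAK and STAT, or, for the interleukin-1 and interleukin-17 families, through adaptor proteins to NF-kB. In the brain many of them are made or sensed by microglia, astrocytes, vessel-associated macrophages and endothelium, and several are induced by seizures.

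Library totals ran from 30925368 to 49943021 counts, so 10 counts corresponded to between 0.187 and 0.346 CPM (the count of a gene scaled to library size with TMM factors, the unit of level used here). Within-group pairs of libraries differed by 19.8 to 582.8 chi-square units per degree of freedom, so none was a repeat of another. Summed neuron markers lay between 2580 and 5317 CPM and astrocyte markers between 3844 and 12260 CPM. Summed microglia markers were 575.8 to 1415 CPM in KA sham, 1139 to 1531 CPM in KA 3 Class V, 805.2 to 1649 CPM in KI sham and 589.4 to 618.5 CPM in KI 3 Class V. KI sham 3 had the highest sums of microglia markers (1649 CPM) and T cell markers (79.8 CPM) of all libraries, and KI sham 4 the highest of choroid plexus markers (971 CPM). KI sham 1 had the lowest sum of astrocyte markers (3844 CPM). Its red blood cell markers (2071 CPM) were above those of the other KI shams (329.4 to 683.4 CPM). In this bulk tissue, fewer cells of a type and less RNA per cell cannot be told apart.

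Ligands and receptors had different patterns over the 4 groups. In the KI model, fitted values of both were mostly lower in 3 Class V than in sham, for 30 of 35 ligands (median log2 fold change -1.32) and 22 of 32 tested receptors (median -0.42). In the KA model the ligands were divided, with 17 of 35 higher in 3 Class V (median -0.01), whereas 25 of 32 receptors were higher (median 0.34). Over all genes tested the medians were -0.01 in KA and -0.04 in KI, and 48.0% and 46.8% of genes were higher. These are descriptions of direction, and most single members did not pass the test.

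The ligand median depended on which members were counted. Among members with at least 10 counts in all 18 libraries, the 19 ligands had a KI median of -0.33 and the 22 receptors one of -0.42. The chemokine ligands of that subset, 9 in number, kept a KI median of -1.33. Single libraries also moved the ligand median, which was -0.57 without KI sham 3.

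**Figure D1:**
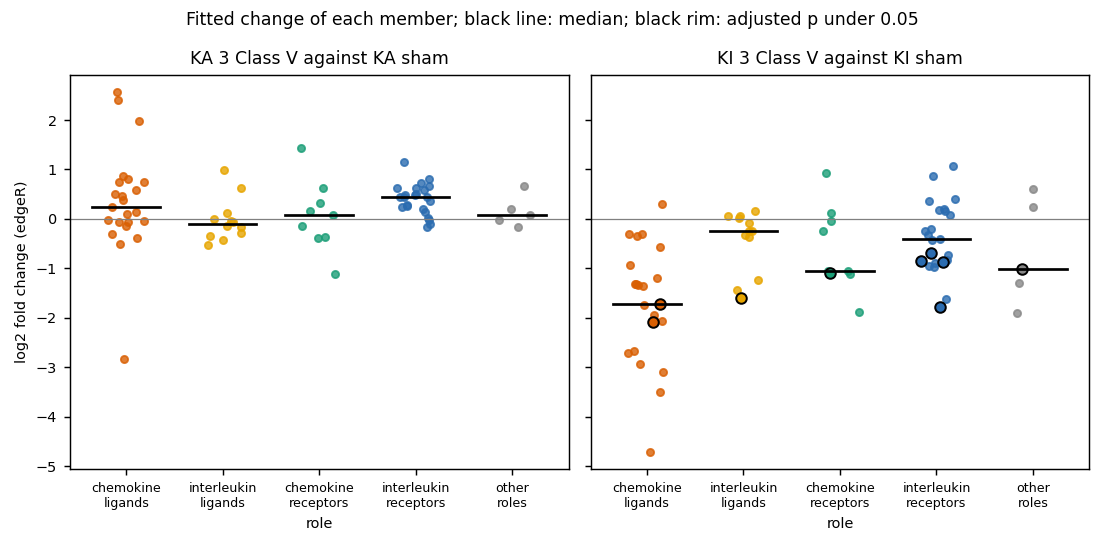
Log2 fold change (3 Class V minus sham, vertical axis) of each tested member by role, in the KA and KI models. Each point is 1 gene, the black line is the median of the role and a black rim marks an edgeR adjusted p under 0.05; all 9 rimmed points lie below 0 in KI.

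Per library, the mean of each role was taken over log2 CPM values centred on each gene's mean. The 4 KI 3 Class V libraries had ligand means between -0.70 and -0.49 and receptor means between -0.22 and -0.11. Of the ligands, 7 had no KI 3 Class V library with 10 counts and were kept through the other groups, as were the receptors Cxcr3 and Ccr3. Low means in KI 3 Class V, above all of the ligands, are thus partly set by the selection. Such means were not computed for the members with 10 counts in all 18 libraries. KI sham ligand means were -0.07, -0.08, 1.16 and 0.13, so KI sham 3 stood above the other shams. Receptor means in KI sham were -0.52, 0.05, 0.50 and 0.27, so KI sham 1 lay below every KI 3 Class V library and was the lowest of all 18. KA 3 Class V ligand means were -0.01, 0.03 and 0.85, with the highest in library 3. KA sham ligand means ranged from -0.55 through a median of -0.05 to 0.94, and so spanned all 3 KA 3 Class V libraries. Receptor means in KA 3 Class V were 0.09, 0.26 and 0.49, against a range of -0.35 to 0.21 in KA sham. KA sham 2 held the highest value of all 18 libraries for 10 of 35 ligands and KI sham 3 for 9. The KI 3 Class V libraries together held the lowest value for 15 of the 35. In KA sham 2 the sums of red blood cell markers (4205 CPM) and oligodendrocyte markers (32760 CPM) were also the highest of all libraries. Their part in its ligand values was not tested.

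**Figure D2:**
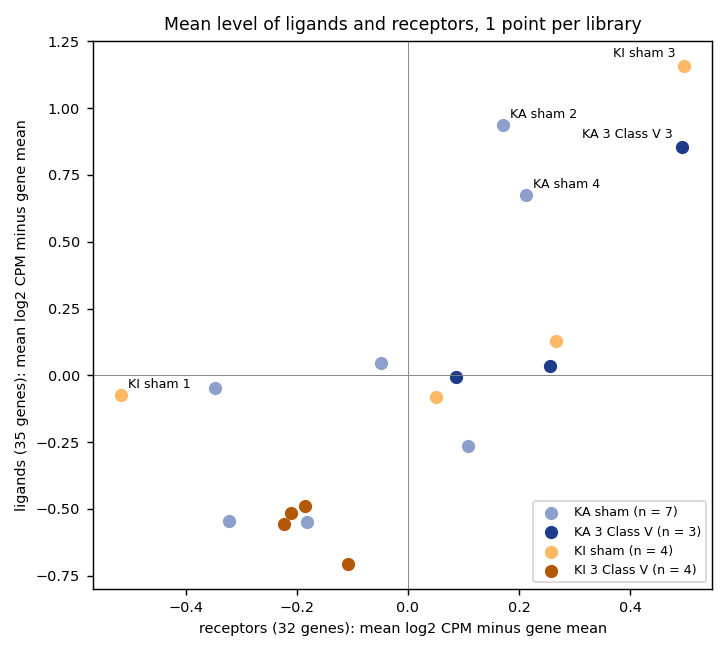
Mean centred log2 CPM of the 35 ligands (vertical axis) against that of the 32 tested receptors (horizontal axis), 1 point per library, coloured by group. The 4 KI 3 Class V libraries sit together at ligand means of -0.70 to -0.49, while KI sham 3 and KA 3 Class V 3 lie at the upper right. The ligands include 7 with no KI 3 Class V library of 10 counts, kept through the other groups.

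In the KI model, 9 members fell and none rose at an edgeR adjusted p under 0.05. That is 12.5% of the 72 tested, where 9.99% of all genes tested passed, 5.25% lower and 4.74% higher. Among them were the ligands Ccl19, Cxcl16 and Il18, the receptors Il3ra, Il10rb, Il17ra and Il21r, and the binding protein Il18bp. At an unadjusted p under 0.05, 29 members were lower and 3 higher, against 18.2% and 17.2% of all genes.

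Ccl19, a chemokine that guides dendritic cells and T cells through Ccr7, had the smallest p of all members. Its level was 1.87, 1.21, 1.77 and 2.53 CPM in the 4 KI sham libraries and 0.535, 0.476, 0.338 and 0.402 CPM in KI 3 Class V. Every 3 Class V library lay below every sham. The log2 fold change was -2.07 ± 0.38 (SE, n = 4 and 4, edgeR adjusted p = 0.0210). In the KA model Ccl19 ranged from 0.552 through 1.53 to 2.08 CPM in sham and read 1.45, 0.767 and 1.84 CPM in 3 Class V, which overlapped.

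Cxcl16, a membrane-bound chemokine that is also shed and binds Cxcr6, was 11.2, 16, 40.5 and 22 CPM in KI sham and 7.21, 6.66, 5.88 and 7.54 CPM in KI 3 Class V. The groups did not overlap, and KI sham 3 was the highest sham. Its log2 fold change was -1.72 ± 0.45 (edgeR adjusted p = 0.0333), and -1.27 without KI sham 3 (adjusted p = 0.0900). In KA sham Cxcl16 ranged from 7.37 through 10.5 to 29.8 CPM, and in KA 3 Class V it was 15.7, 23.6 and 31.8 CPM, a fitted difference of 0.74 ± 0.41 that did not pass (edgeR adjusted p = 0.581).

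Il18, an inflammasome-processed cytokine of the interleukin-1 family, was 3.42, 3.32, 8.26 and 3.51 CPM in KI sham and 1.39, 1.73, 1.27 and 1.70 CPM in KI 3 Class V. Again no 3 Class V library reached a sham, and KI sham 3 was the highest. The log2 fold change was -1.60 ± 0.39 (edgeR adjusted p = 0.0307). Il18bp, the secreted protein that binds and neutralizes interleukin-18, fell along with it. It was 4.57, 3.60, 7.62 and 3.77 CPM in KI sham and 2.24, 2.88, 2.17 and 2.36 CPM in KI 3 Class V, a log2 fold change of -1.02 ± 0.25 (edgeR adjusted p = 0.0312). In the KA model Il18bp differed by -0.02 ± 0.24 (edgeR adjusted p = 0.988).

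Among the receptors that fell in KI, Il21r, the private chain of the interleukin-21 receptor, had the steepest change. It read 2.11, 2.45, 6.29 and 3.25 CPM in KI sham and 1.1, 1.1, 0.816 and 1.09 CPM in KI 3 Class V. The groups were apart, with a log2 fold change of -1.78 ± 0.36 (edgeR adjusted p = 0.0221). Il17ra, the chain shared by receptors of the interleukin-17 family, was 32.3, 33.7, 45.1 and 45.3 CPM in KI sham and 23.5, 20.8, 24.0 and 18.6 CPM in KI 3 Class V. Here all 4 shams were above all 4 kindled libraries and KI sham 3 was not alone at the top. Its log2 fold change was -0.85 ± 0.20 (edgeR adjusted p = 0.0282).

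Il10rb, a chain shared by the receptors of interleukin-10, interleukin-22 and type III interferon, was 4.63, 7.36, 11.6 and 11 CPM in KI sham. KI 3 Class V libraries held 4.69, 5.16, 4.96 and 4.25 CPM, so KI sham 1 lay within their range. The log2 fold change was -0.86 ± 0.24 (edgeR adjusted p = 0.0383). Il3ra, the interleukin-3 binding chain, was 16.4, 12.6, 12.0 and 11.1 CPM in KI sham and 6.20, 8.82, 7.09 and 10.1 CPM in KI 3 Class V. Its log2 fold change of -0.69 ± 0.21 had the largest p of the 9 (edgeR adjusted p = 0.0449).

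These calls leaned on single libraries. Without KI sham 3, Ccl19 alone of the 9 stayed under 0.05 (log2 fold change -2.10, edgeR adjusted p = 0.0390). No member passed without KI 3 Class V 1, 2 or 3, 6 did without KI sham 2 or KI 3 Class V 4, and 24 did without KI sham 4. All 9 kept a negative log2 fold change in every alternative listed in the closing section. Beside these results, 5 of 10 microglia markers also fell in KI (median log2 fold change -0.78). Summed T cell markers (7 genes) were 26.4 to 79.8 CPM in KI sham and 16.3 to 21.3 CPM in KI 3 Class V, and 1 passed. Singly, Cd4 (7.12 to 42.3 and 9.28 to 13 CPM), Cd3e (4.77 to 16.1 and 4.48 to 5.21 CPM) and Cd8a overlapped. Cd3e was highest in KI sham 1 and Cd8a, at 38.2 CPM, in KI sham 3. Sums for monocytes and border macrophages (6 genes) were 85.9 to 317.2 CPM in KI sham and 61.5 to 74.1 CPM in KI 3 Class V, and 3 fell. Most of this was Lyz2, at 73.1 to 239 and 45.4 to 60.8 CPM, while Mrc1, Cd163 and Lyve1 overlapped. Summed neutrophil markers (6 genes) were 6.23 to 20.7 and 5.94 to 7.43 CPM. Most of that sum was Csf3r, at 3.87 to 19.6 CPM in KI sham and 5.21 to 5.72 CPM in KI 3 Class V. S100a9 overlapped, at 0.515 to 1.65 and 0.276 to 0.630 CPM, and none of the 5 tested neutrophil markers passed. The defining genes Mpo and Ngp stayed at or under 0.277 and 0.346 CPM in these groups, and B cell markers stayed at or under 1.04 CPM in every library. Neuron markers moved the other way, at 2977 to 3404 CPM in KI sham and 4160 to 5317 CPM in KI 3 Class V. The part of these cell types in the result was not tested.

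**Figure D3:**
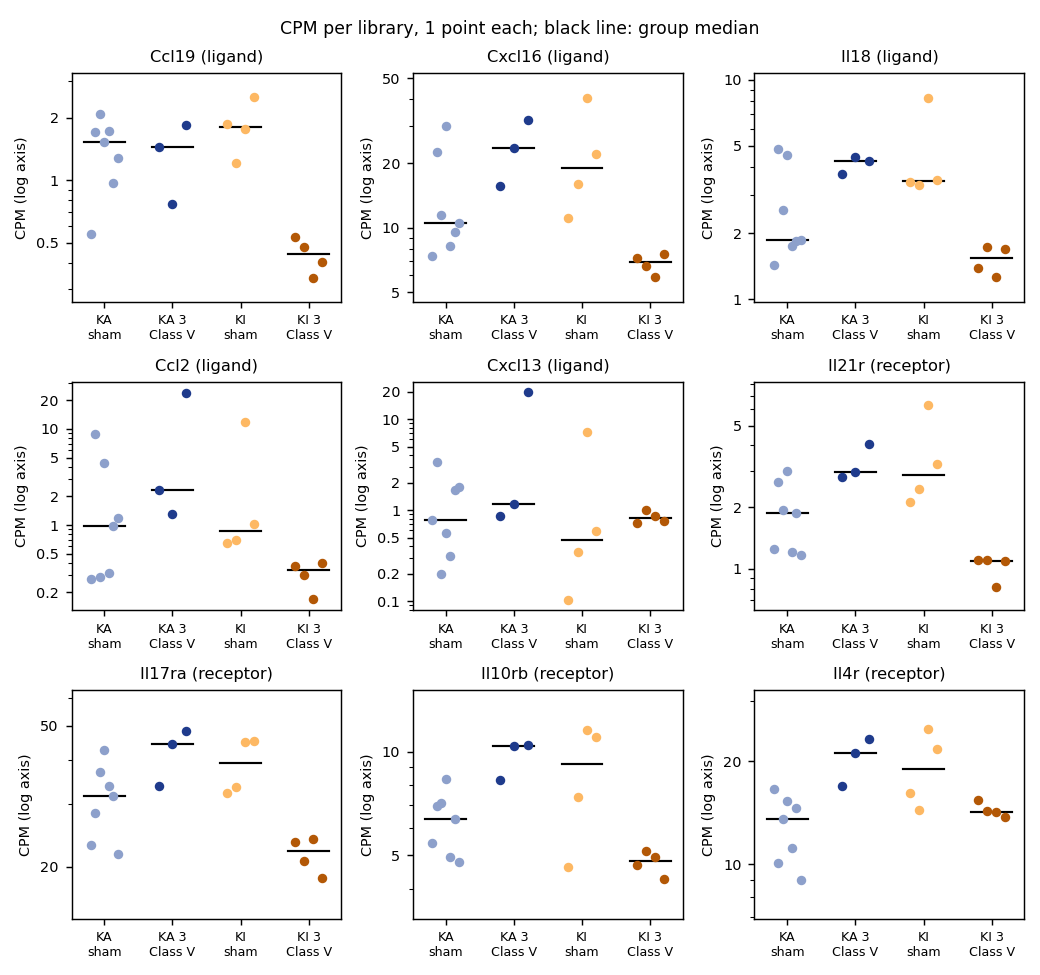
CPM (log axis) of 9 members in each of the 18 libraries by group, 1 point per library, with the group median as a black line. KI 3 Class V points lie below all KI sham points for Ccl19, Cxcl16, Il18, Ccl2, Il21r and Il17ra, and KA 3 Class V 3 stands far above the other libraries for Cxcl13 and is highest for Ccl2.

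Promoters of members called in KI, or in the test between models described further on, are shown because these members moved together and because motifs of cytokine signalling can be read in them. RefSeq (build GRCr8) gave a promoter, 250 bases before to 50 bases after the gene start, for 58 of the 73 members, while the counts were made on rn6. On both strands 4 motifs were searched: the core of the interferon-stimulated response element (GAAA, any 2 bases, GAAA), TTCNNNGAA (the gamma-activated site bound by STAT proteins), GAGGAA (an ETS core, as bound by the myeloid factor PU.1) and the NF-kB consensus. Capitals mark the matches, and each sequence is printed 5′ to 3′ on its gene's strand.
Ccl19: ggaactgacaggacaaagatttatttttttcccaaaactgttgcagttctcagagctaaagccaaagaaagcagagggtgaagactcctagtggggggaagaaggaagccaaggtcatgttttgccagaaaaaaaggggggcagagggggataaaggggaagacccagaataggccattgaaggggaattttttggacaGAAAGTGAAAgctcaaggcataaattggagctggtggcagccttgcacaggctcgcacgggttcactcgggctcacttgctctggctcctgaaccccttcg
Il18bp: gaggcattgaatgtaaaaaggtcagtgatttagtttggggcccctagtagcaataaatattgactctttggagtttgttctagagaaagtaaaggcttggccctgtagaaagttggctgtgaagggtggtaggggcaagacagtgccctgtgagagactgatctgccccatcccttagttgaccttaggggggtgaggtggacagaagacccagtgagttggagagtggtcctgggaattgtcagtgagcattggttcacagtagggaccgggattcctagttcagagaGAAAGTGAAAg
Cxcl16: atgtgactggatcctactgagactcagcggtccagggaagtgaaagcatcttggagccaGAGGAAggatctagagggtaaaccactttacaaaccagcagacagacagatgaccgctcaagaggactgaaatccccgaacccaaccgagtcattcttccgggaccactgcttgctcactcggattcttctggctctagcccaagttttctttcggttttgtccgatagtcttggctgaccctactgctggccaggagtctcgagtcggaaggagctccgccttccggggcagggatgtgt
Il4r: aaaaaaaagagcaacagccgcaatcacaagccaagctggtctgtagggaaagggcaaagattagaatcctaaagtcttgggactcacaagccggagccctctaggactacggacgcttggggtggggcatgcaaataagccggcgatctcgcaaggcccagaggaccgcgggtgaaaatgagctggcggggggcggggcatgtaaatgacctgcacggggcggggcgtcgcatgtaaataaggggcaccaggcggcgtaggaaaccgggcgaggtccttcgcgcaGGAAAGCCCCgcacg
Il10rb: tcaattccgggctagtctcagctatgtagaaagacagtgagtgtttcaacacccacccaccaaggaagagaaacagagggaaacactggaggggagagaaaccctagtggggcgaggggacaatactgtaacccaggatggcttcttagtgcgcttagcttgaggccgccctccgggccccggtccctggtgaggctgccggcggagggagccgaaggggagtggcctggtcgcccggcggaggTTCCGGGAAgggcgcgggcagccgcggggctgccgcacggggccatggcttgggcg

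Ccl19 (chr5:61761115-61761414, minus strand) and Il18bp (chr1:165786906-165787205, minus strand) carried the same letters of the interferon-stimulated core, starting 51 bases before the start in Ccl19 and at base 40 after it in Il18bp. That core was in 3.77% of all 27457 promoters of this length and in 5 of the 58 member promoters (8.62%). Cxcl16 (chr10:55669901-55670200, minus strand) had the ETS core, which 27.5% of all promoters and 17 of 58 member promoters (29.3%) held. Il4r (chr1:189545525-189545824, plus strand) had 1 match to the NF-kB consensus, present in 7.60% of all promoters and in 13 of 58 (22.4%) here. Il10rb (chr11:44132386-44132685, plus strand) had the gamma-activated site, found in 8.68% of all and 7 of 58 (12.1%). Of the other called members, the promoters of Il18, Il21r and Il3ra held none of these letters. Nothing follows from a match or its absence about binding in these samples.

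Of the 23 chemokine ligands, 22 had a negative fitted value in KI, with a median log2 fold change of -1.72, and 10 had groups that did not overlap. Of these 23, 7 had no KI 3 Class V library with 10 counts (Ccl4, Ccl9, Ccl12, Cxcl1, Cxcl2, Cxcl9 and Cxcl11), so they were kept through the other groups. Among the 9 with 10 counts in all 18 libraries, 8 were negative. Over all members, 17 of 72 lay wholly below sham (23.6%), against 8.07% of all genes tested. Of these 17, 12 were ligands. They include Ccl4, Cxcl1 and Cxcl2, which were kept through the other groups, so the share of members is partly set by the selection. Only Cxcr1, a receptor of neutrophil attractants, lay wholly above sham, at 1.89, 1.4, 1.97 and 1.23 CPM against 0.968, 1.21, 0.319 and 0.937 CPM, and 12.1% of all genes did so (0.92 ± 0.40, edgeR adjusted p = 0.115). Cx3cl1, the neuronal ligand of microglial Cx3cr1, was the exception in sign, with 566, 338, 275 and 412 CPM in KI sham and 570.1, 499, 538 and 350.0 CPM in KI 3 Class V. It differed by 0.30 ± 0.28 (edgeR adjusted p = 0.442), and its groups overlapped.

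Ccl2, a chemokine that recruits monocytes, varied widely between libraries. In KI sham it was 0.657, 0.701, 11.8 and 1.03 CPM, and in KI 3 Class V 0.378, 0.301, 0.169 and 0.402 CPM. The groups were apart, and the difference of -3.50 ± 1.37 (edgeR adjusted p = 0.0872) became -1.35 without KI sham 3. Ccl3, a macrophage inflammatory protein, was 0.415, 1.34, 1.23 and 1.5 CPM in KI sham and 0.315, 0.376, 0.338 and 0.307 CPM in KI 3 Class V. It also stayed apart without passing (-1.75 ± 0.58, edgeR adjusted p = 0.0582). Ccl4, its close relative, differed by -2.04 ± 0.75 (edgeR adjusted p = 0.0741) at 0.242 to 1.01 CPM in KI sham and 0.0751 to 0.197 CPM in KI 3 Class V, near the counting limit.

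KI sham 3 held the highest Cxcl10 and Cxcl11 of all libraries. Cxcl10, which attracts activated T cells through Cxcr3, was 0.553, 1.66, 12.1 and 2.72 CPM in KI sham and 0.913, 1.18, 0.704 and 1.65 CPM in KI 3 Class V. The groups overlapped, and the log2 fold change of -1.93 ± 0.76 (edgeR adjusted p = 0.0896) shrank to -0.57 without KI sham 3. Cxcl11, a neighbour of Cxcl10 in the genome with the same receptor, read 4.33 CPM in KI sham 3 and 0.0748 to 1.14 CPM in the 17 other libraries. Ccl5, another T cell attractant, was 0.311, 0.542, 2.26 and 0.679 CPM in KI sham and 0.441, 0.276, 0.197 and 0.614 CPM in KI 3 Class V, a difference of -1.32 ± 0.58 (edgeR adjusted p = 0.117) that was -0.43 without KI sham 3. Cxcl10 and Cxcl11 overlap the gene Art3, and the strand setting of the counting is not given, so their reads cannot be told apart from it.

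Cxcl12, Cxcl14 and Cxcr4 did not pass in either model. Cxcl12, the stromal ligand of Cxcr4, was 131, 124, 113 and 126 CPM in KI sham and 96.7, 107, 95.1 and 103 CPM in KI 3 Class V. These groups did not overlap, but the difference of -0.30 ± 0.16 did not pass (edgeR adjusted p = 0.185). Cxcr4 itself differed by -0.24 ± 0.16 in KI (edgeR adjusted p = 0.275) and by -0.13 ± 0.15 in KA (edgeR adjusted p = 0.818). Cxcl14, a chemokine also made by interneurons, differed by -0.35 ± 0.21 in KI and by -0.02 ± 0.21 in KA (edgeR adjusted p = 0.233 and 0.985).

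Interleukin ligands other than Il18 did not pass in either model. Il1b, the inflammasome-dependent cytokine, was 0.692, 0.669, 2.16 and 0.890 CPM in KI sham and 0.283, 0.476, 0.310 and 0.543 CPM in KI 3 Class V. All kindled libraries lay below all shams, with a difference of -1.44 ± 0.72 (edgeR adjusted p = 0.154) that was -0.89 without KI sham 3. In KA sham Il1b ran from 0.437 through 0.686 to 3.82 CPM and covered the 0.960, 1.33 and 1.82 CPM of KA 3 Class V, and the fitted sign there turned under several alternatives. Its signalling receptor Il1r1 differed by 0.20 ± 0.42 in KA and 0.16 ± 0.44 in KI (edgeR adjusted p = 0.915 and 0.808). KI sham 1, at 0.277 CPM, was the lowest library for Il1r1, and the 17 other libraries held 1.5 to 3.63 CPM.

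Il33, an alarmin of astrocytes and oligodendrocytes, was 37.9, 53.0, 40.1 and 29.1 CPM in KI sham and 30.5, 37.5, 29.5 and 30.0 CPM in KI 3 Class V, which overlapped (-0.33 ± 0.23, edgeR adjusted p = 0.304). Il34, a neuronal ligand of the receptor Csf1r, differed by 0.07 ± 0.17 in KI and -0.16 ± 0.17 in KA. Il16, a T cell attractant, differed by 0.16 ± 0.19 and -0.14 ± 0.18. None of these 4 values passed (edgeR adjusted p = 0.784, 0.795, 0.553 and 0.851), and each of these genes lay above 25 CPM in every library.

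In the KA model no member passed the edgeR test, where 0.172% of all genes tested (23 genes, all higher) did. At an unadjusted p under 0.05, 11 members were higher (15.3%) and 1 was lower (1.39%), against 6.34% and 3.59% of all genes. Of the 11, 8 were interleukin receptors: Il4r, Il6r, Il6st, Il10rb, Il13ra1, Il17ra, Il21r and Il1rl1. Under DESeq2 1 member passed, Il4r (1.39%, against 1.90% of all genes), and under limma-voom with sample weights 8 did (11.1%, against 5.44%).

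Il4r, the chain that binds interleukin-4 and pairs with Il13ra1 or Il2rg, had the smallest p in KA. It ranged from 9.01 through 13.5 to 16.6 CPM in KA sham and was 17, 21.2 and 23.3 CPM in KA 3 Class V. Every 3 Class V library was above every sham. The fitted difference of 0.67 ± 0.19 had an edgeR adjusted p of 0.153 and, with DESeq2, an adjusted p of 0.0392. Groups were apart in this direction for 2 further members, against 2.95% of all genes: Il6st, at 97.7 to 151 CPM in KA sham and 167, 205 and 168 CPM in KA 3 Class V, and Il17rd, at 2 to 3.10 and at 3.57, 3.87 and 4.12 CPM. No member had KA 3 Class V wholly below sham, against 2.70% of all genes.

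Il6st is gp130, the signal-transducing chain shared by interleukin-6, interleukin-11 and related cytokines, and its difference was 0.49 ± 0.16 (edgeR adjusted p = 0.247). Its partner Il6r ranged from 14.7 through 18.6 to 25.8 CPM in KA sham and was 22.5, 31.0 and 27.2 CPM in KA 3 Class V, which overlapped (0.45 ± 0.18, edgeR adjusted p = 0.352). Il11, another ligand of gp130 receptors, was 0.500 through 0.732 to 0.884 CPM in KA sham and 0.689, 0.935 and 2.48 CPM in KA 3 Class V. Its difference of 0.98 ± 0.31 (edgeR adjusted p = 0.214) was 0.23 without KA 3 Class V 3. Il6 itself was not kept, because only 1 library, KI sham 3, reached 10 counts.

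Other receptor chains showed the same direction at smaller p-values than most members. Il10rb ranged from 4.78 through 6.36 to 8.33 CPM in KA sham and was 8.27, 10.4 and 10.5 CPM in KA 3 Class V, with the lowest of these just under the highest sham (0.63 ± 0.22, edgeR adjusted p = 0.278). Il10ra, the ligand-binding chain for interleukin-10, differed by 0.63 ± 0.32 (edgeR adjusted p = 0.552). Il13ra1, which completes the type II interleukin-4 receptor, was 7.57 through 10.7 to 18.7 CPM in KA sham and 16.3, 19.8 and 22.7 CPM in KA 3 Class V (0.74 ± 0.28, edgeR adjusted p = 0.333). Taking interleukin receptors as a group, 20 of 23 tested had a positive value in KA (median 0.45), and the exceptions were Il3ra, Il12rb2 and Il17rc. With each library left out in turn, that number lay between 18 and 21.

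Cxcl13, the B cell attractant that binds Cxcr5, had the largest positive fitted value in KA and rested on 1 library. It was 0.200 through 0.773 to 3.37 CPM in KA sham and 0.861, 1.18 and 19.8 CPM in KA 3 Class V. The difference of 2.56 ± 0.98 (edgeR adjusted p = 0.336) became -0.28 without KA 3 Class V 3. Ccl2 had the same form, with 0.276 through 0.969 to 8.94 CPM in KA sham and 2.31, 1.31 and 23.8 CPM in KA 3 Class V. Its difference of 1.99 ± 1.05 (edgeR adjusted p = 0.567) became -0.37 without that library. KA 3 Class V 3 held the highest value of all 18 libraries for 5 of the 35 ligands and 5 of the 32 tested receptors.

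In KA 3 Class V, summed microglia markers (1139 to 1531 CPM) overlapped those of KA sham, and none of the 10 passed. Summed T cell markers were 45.6 to 55.6 CPM in KA 3 Class V and 16.5 to 44.1 CPM in KA sham, and none of the 7 passed. That difference lay in Cd4, which microglia and macrophages of the rat also express, at 40.9 to 45 CPM against 7.09 to 32.3 CPM. Cd3e, a defining T cell gene, was not higher, at 1.85 to 4.75 CPM in KA 3 Class V and 3.92 to 9.12 CPM in KA sham, and Cd8a and Lck overlapped. Summed astrocyte markers were 10100 to 12260 and 4212 to 7993 CPM, mostly Gfap, the filament protein of reactive astrocytes, at 7391 to 9278 and 2264 to 5535 CPM. Aqp4 was also apart, whereas Slc1a2, Slc1a3 and Aldh1l1 overlapped, and Gfap alone of the 5 astrocyte markers passed the edgeR test. The part of these cell types in the receptor values was not tested.

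**Figure D4:**
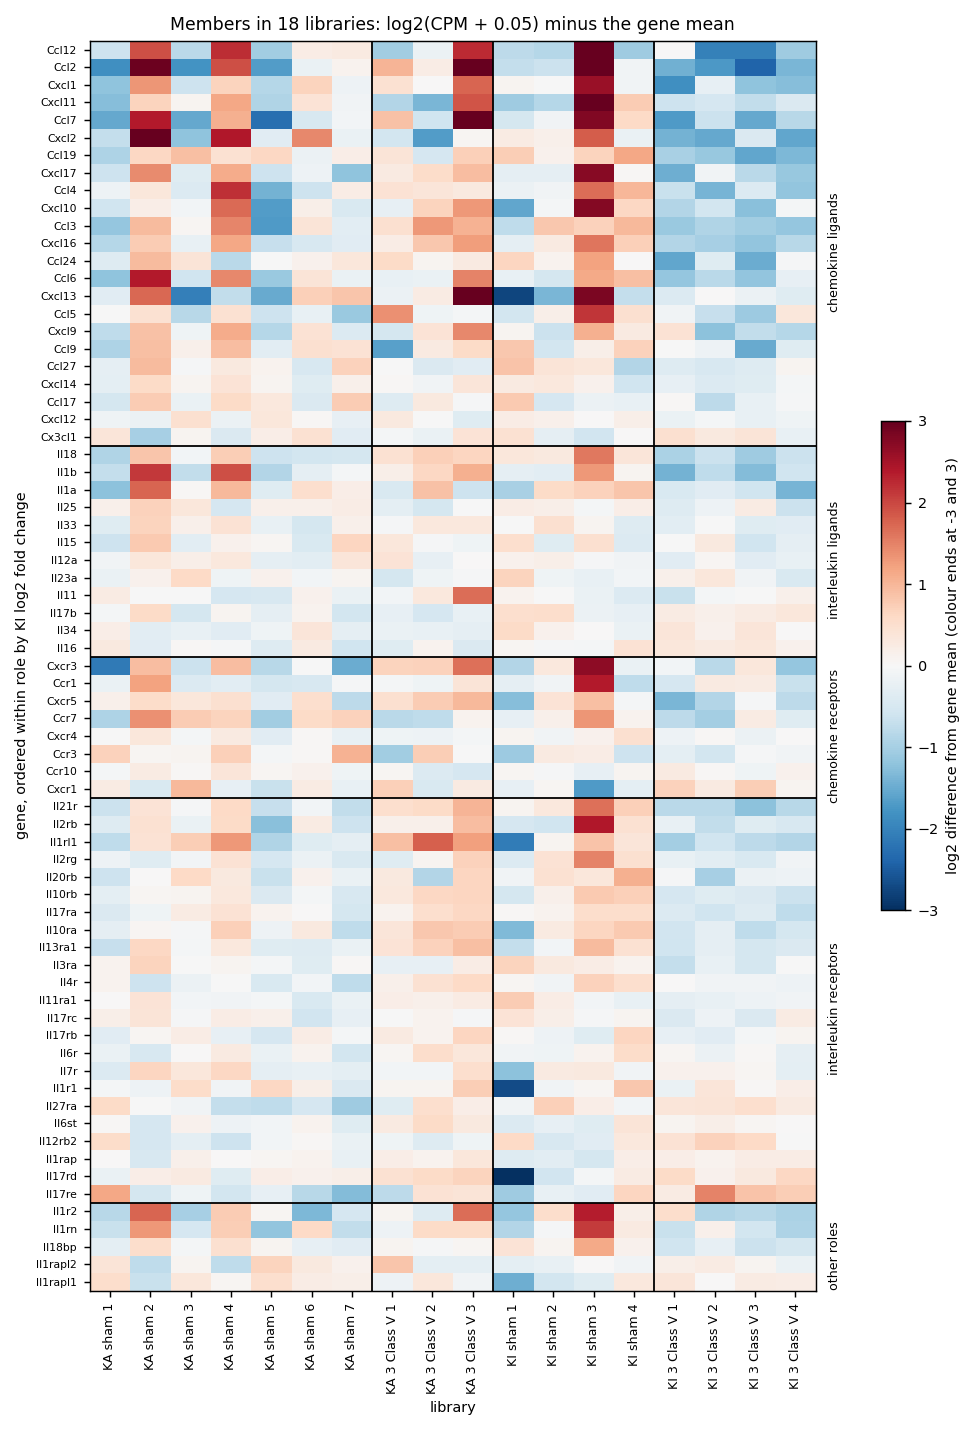
Log2(CPM + 0.05) of 71 of the tested members minus each gene's mean, by library (columns, by group) and gene (rows, by role). Most chemokine ligands are low across the 4 KI 3 Class V libraries and high in KI sham 3, KA sham 2 and, for a few genes, KA 3 Class V 3.

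Whether the change from sham differed between models was tested directly, as the KA change minus the KI change. Here 7 members passed, all with the higher change in KA, which is 9.72% of the 72 against 3.15% of all genes tested. Over both directions 3.8% of all genes passed, and 0.652% had the lower change in KA. The 7 were the ligands Ccl19, Cxcl16 and Il18 and the receptors Il4r, Il10rb, Il17ra and Il21r. Since the same libraries enter this test and those within each model, the values are given side by side and not as separate evidence.

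Il21r had the smallest p, with a change of 0.82 ± 0.33 in KA and -1.78 ± 0.36 in KI, a difference of 2.60 ± 0.48 (edgeR adjusted p = 0.0139). In KA sham it ranged from 1.17 through 1.87 to 3.00 CPM and in KA 3 Class V it was 2.81, 2.97 and 4.07 CPM. The difference for Il17ra was 1.28 ± 0.27 (edgeR adjusted p = 0.0190), with 21.8 through 31.8 to 42.7 CPM in KA sham and 33.7, 44.4 and 48.4 CPM in KA 3 Class V. Both receptors thus overlapped between the KA groups, at the lower end of 3 Class V.

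For Il10rb the changes of 0.63 and -0.86 differed by 1.49 ± 0.33 (edgeR adjusted p = 0.0214). For Il18, which ranged from 1.44 through 1.86 to 4.83 CPM in KA sham and was 3.72, 4.47 and 4.27 CPM in KA 3 Class V, the difference was 2.24 ± 0.53 (edgeR adjusted p = 0.0284). Cxcl16 differed by 2.46 ± 0.60 (edgeR adjusted p = 0.0314). In Ccl19 the difference of 2.01 ± 0.50 (edgeR adjusted p = 0.0342) lay almost wholly on the KI side, as its KA change was -0.06 ± 0.34. Il4r was called here and in neither model alone. Its changes, 0.67 ± 0.19 in KA and -0.42 ± 0.20 in KI, had opposite signs and differed by 1.09 ± 0.27 (edgeR adjusted p = 0.0352). In KI, Il4r was 16.1, 14.4, 24.8 and 21.8 CPM in sham and 15.4, 14.3, 14.2 and 13.8 CPM in 3 Class V.

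No member passed this test without KA 3 Class V 3, although the 7 values stayed between 0.99 and 2.43. Without KI sham 3 the count was 3 (Il21r, Il17ra and Il10rb). It was 2 without KA 3 Class V 2, KI 3 Class V 1 or KI 3 Class V 3, and 3 without KI 3 Class V 2 or 4. It rose to 11 without KA sham 2, 13 without KA sham 4 and 14 without KI sham 1. Of 10 microglia markers, 6 had a significantly higher change in KA in the same test (median difference 1.54), and their part in the members' differences was not tested.

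By sign of the 2 changes, 15 of 35 ligands were higher in KA and lower in KI, 15 lower in both, 2 higher in both and 3 lower in KA and higher in KI. Of the 32 receptors, 17 were higher in KA and lower in KI, 5 lower in both, 8 higher in both and 2 lower in KA and higher in KI. Receptors higher in both included Il6st, Il1rap and Il17rd. In KI, Il17rd was 0.208, 1.72, 2.46 and 3.07 CPM in sham and 3.87, 2.83, 3.15 and 4.02 CPM in 3 Class V. Those groups overlapped, and KI sham 1 lay far below the other shams. Il1rap, the accessory chain of interleukin-1 family receptors, was 25.6, 26.6, 23.1 and 38.4 CPM in KI sham and 37.9, 35.9, 38.6 and 38.7 CPM in KI 3 Class V (0.41 ± 0.15, edgeR adjusted p = 0.0751). Il1rapl1, its synaptic relative, differed by 0.60 ± 0.30 in KI and -0.16 ± 0.29 in KA (edgeR adjusted p = 0.157 and 0.897).

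The control groups were also compared. No member passed between KA sham and KI sham, where 0.0075% of all genes tested (1 gene) did. At an unadjusted p under 0.05, 10 members were lower in KA sham and 1 was higher (13.9% and 1.39%), against 4.58% and 4.05% of all genes. DESeq2 called none of the members and limma-voom with sample weights called 3 (4.17%, against 3.08% of all genes). Smallest p-values belonged to Il4r (-0.58 ± 0.17), Il21r (-0.93 ± 0.30) and Il2rg (-0.84 ± 0.29), the last being the gamma chain common to receptors of interleukin-2, interleukin-4 and interleukin-21, followed by Cxcl11, Ccl5 (-1.21 ± 0.49) and Il18 (-0.79 ± 0.33), all at an edgeR adjusted p of 0.564. Without KI sham 3 the values were -0.49 for Il21r, -0.40 for Il2rg, -0.32 for Ccl5 and -0.35 for Il18. The KA sham against KI sham value of Cxcl11 was -2.02 ± 0.81 and 0.31 without KI sham 3. All 7 members called between models had a negative fitted value in this comparison, from -0.93 for Il21r to -0.32 for Il17ra, and none passed.

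Pairs of ligand and receptor can be read side by side. For Cxcl16 the receptor Cxcr6 was not kept, as only 2 libraries reached 10 counts, and the same held for Il18r1, the binding chain for interleukin-18. Ccr7, the receptor of Ccl19, was kept at 0.097 through 0.433 to 0.734 CPM in KA sham, 0.123 to 0.278 CPM in KA 3 Class V, 0.207 to 0.713 CPM in KI sham and 0.100 to 0.310 CPM in KI 3 Class V, which overlapped in both models. Cxcr3, the receptor of Cxcl10 and Cxcl11, was 1.35 CPM in KI sham 3, the library highest for both ligands, and 0 to 0.632 CPM in the 17 other libraries. Il1rl1, the receptor of Il33, was 1.09 through 1.72 to 5.23 CPM in KA sham and 3.91, 7.37 and 4.93 CPM in KA 3 Class V (1.14 ± 0.46, edgeR adjusted p = 0.375), while Il33 differed by 0.12 ± 0.22. Cx3cr1, the receptor of Cx3cl1, whose symbol lies outside the selection, differed by 0.71 ± 0.35 in KA and -0.65 ± 0.37 in KI (edgeR adjusted p = 0.524 and 0.209).

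Other genes of cytokine signalling, listed by role and not by symbol, were read in the same fit: 63 were listed and 54 tested. In KI, 2 rose (3.70%, against 4.74% of all genes) and 7 fell (13%, against 5.25%). The 2 that rose were Jak1 (0.80 ± 0.23, edgeR adjusted p = 0.0436), the kinase of many interleukin receptors, and Socs5 (0.32 ± 0.09, edgeR adjusted p = 0.0418), a suppressor of cytokine signalling. Among the 7 that fell were the receptor chains Csf2ra (-1.97 ± 0.37, edgeR adjusted p = 0.0221) and Csf2rb (-2.50 ± 0.70, edgeR adjusted p = 0.0395), the latter shared with Il3ra. Csf2rb was highest in KI sham 3, at 45.1 CPM, and its value was -1.33 without that library (adjusted p = 0.137). The inflammasome genes Pycard (-1.79 ± 0.43) and Nlrp3 (-1.18 ± 0.36), whose products act upstream of interleukin-1 beta and interleukin-18 release, fell too (edgeR adjusted p = 0.0292 and 0.0458). The other 3 were the gp130 cytokines Osm (-1.36 ± 0.42) and Clcf1 (-2.19 ± 0.63) and the receptor Crlf2 (-0.53 ± 0.14), at edgeR adjusted p = 0.0482, 0.0418 and 0.0333. Of these 9, Csf2ra alone passed without KI sham 3 (-1.86, edgeR adjusted p = 0.0431). None passed without KI 3 Class V 1, 2 or 3 or with the replicate number as a block, and 2 did without KI 3 Class V 4. The number was 4 without KI sham 1, KI sham 2, KA sham 3 or KA 3 Class V 1 and 6 to 9 without each other library. Neither Jak1 nor Socs5 was among those 4 in any of these cases, so no listed gene rose then. Jak1 was lowest in KI sham 1, at 83.8 CPM, against 134 to 171 CPM in the other KI shams.

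In KA none of the 54 passed, although 44 had a positive value (median 0.26) and 13 were higher (24.1%) and 2 lower (3.70%) at an unadjusted p under 0.05, against 6.34% and 3.59% of all genes. Stat3, the transcription factor downstream of gp130, came nearest: it was 55.1 through 70.3 to 76.3 CPM in KA sham and 94.3, 103 and 125 CPM in KA 3 Class V, which did not overlap (0.68 ± 0.14, edgeR adjusted p = 0.0553). Next were Csf1, a growth factor for microglia (0.75 ± 0.19, edgeR adjusted p = 0.109), and the scavenging chemokine receptor Ackr2 (-0.90 ± 0.25, edgeR adjusted p = 0.152). Socs3, a target of Stat3 that feeds back on gp130, differed by 1.2 ± 0.50 in KA and -1.34 ± 0.56 in KI (edgeR adjusted p = 0.392 and 0.103). It was 0.53 in KA without KA 3 Class V 3 and -0.62 in KI without KI sham 3.

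The test between models called 8 of the 54 with the higher change in KA (14.8%, against 3.15% of all genes) and 1, Ackr2, with the lower (1.85%, against 0.652%; -1.39 ± 0.35, edgeR adjusted p = 0.0370). Those 8 were Csf1r, Csf2ra, Csf2rb, Osm, Stat3, Myd88, Nlrp3 and Pycard, with differences between 0.78 for Stat3 and 4.03 for Csf2rb, which was 2.85 without KI sham 3. None of the 9 passed without KA 3 Class V 3 (edgeR adjusted p = 0.0547 to 0.149) or with the replicate number as a block, and Csf2ra alone passed without KI sham 3 (edgeR adjusted p = 0.0342). The number was 1 without KA 3 Class V 2 or KI 3 Class V 1, 2 without KI 3 Class V 2 or 3, 4 without KI 3 Class V 4 and 5 to 9 without each other library.

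Of the 121 symbols, 48 were too low to keep: 35 had no library with 10 counts and 13 had 1 or 2 such libraries. Those just outside included Il6, Ccl20, Cxcl3, Cxcl6, Cxcr2, Cxcr6, Il18r1 and Il13ra2, and those just inside, with exactly 3 libraries, were Il1r2 and Il2ra. Il3, Il17f, Il1f10 and Il36g had 0 counts in all 18 libraries. Of the kept members, 45 reached 10 counts in all 18 libraries, and 11 did so in no KI 3 Class V library, among them Ccl4, Ccl12, Cxcl1, Cxcl2, Cxcl9, Cxcl11 and Cxcr3. In KA 3 Class V only Cxcl2, a neutrophil attractant, was in that position, at 0.0984, 0.0187 and 0.177 CPM against 0.0444 through 0.139 to 2.88 CPM in KA sham. By RefSeq gene order, 30 members formed 11 runs of neighbours, such as Il4r with Il21r and Ccl2 with Ccl7 and Ccl12, so near genes are not independent observations. Members that overlap another gene on the annotation, among them Ccl27 with Il11ra1, Cxcl16 with Zmynd15, Il18 with Bco2 and Tex12, and Il6r with She, may share reads with it.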

How the data were processed

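RNA of the left hippocampus was sequenced as single-end reads of 110 bases. The submitters' processing notes list HISAT2, featureCounts, FastQC, Trimmomatic and DESeq2, and the build rn6. Their versions, the strandedness of the counting and its handling of multi-mapped reads were not given in the sources used here. The authors deposited 1 table of raw counts per gene and library, which carries no normalization. All else was computed from it. The labels name no batch.

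Counts were fitted on all 18 libraries with edgeR 4.0.16 in R 4.3.3 (filterByExpr, TMM factors, group means, robust quasi-likelihood F test, 14 residual degrees of freedom, two-sided). P-values were adjusted by Benjamini-Hochberg over 13338 genes, with 0.05 as the threshold. SE is the size of the log2 fold change divided by the root of F, and CPM uses the TMM-scaled library size. Depth of 30925368 to 49943021 counts per library limits members under about 0.3 CPM to fewer than 10 counts. DESeq2 1.42.0 and limma 3.58.1 served as alternatives.

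Members and lists were chosen with earlier results of these data known. Named genes are every called member and the 6 smallest p-values in each comparison, a reference set of 24 members, and from the signalling list every called gene, the 3 smallest p-values, Cx3cr1 and Socs3; partners, genes at the limits of the selection and other members named beside them were chosen after their values were seen. On simulated counts for the KI comparison, 8.57%, 63.6% and 95.3% of genes changed by 1.5, 2 and 4 times were recovered, and for KA 18.2%, 80% and 100%. Of the unchanged genes, 8 were called for KI and 11 for KA. Each gene was given the spread usual at its level and no library was set apart, so members that vary more may be recovered less often. A called member is not reported here by name, though counts and medians include it. Promoters are from RefSeq, GRCr8.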

Additional observations from a re-analysis of the deposited data

Results flagged for a closer look

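Within groups of 4 or more libraries, 1 library lay far from the rest for 11 of 99 combinations of named member and group. For independent, normally distributed values about 5 would be flagged. These members share libraries and were partly named by their p-values in the same data, so that figure is no measure of chance here. KI sham 3 was the high library for Ccl2 (11.8 CPM, next 1.03), Cxcl11 (4.33, next 0.492), Cxcl13 (7.25, next 0.585), Il18 (8.26, next 3.51) and Il1b (2.16, next 0.890). KA sham 4 was high for Ccl4 (1.47 CPM, next 0.367), Cxcl10 (5.77, next 1.99) and Il2rg (2.23, next 1.53). Il3ra was high in KA sham 2 (16.3 CPM, next 11). In KI 3 Class V, Il33 was high in library 2 (37.5 CPM, next 30.5) and Il21r was low in library 3 (0.816 CPM, next 1.09).

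The change from sham differed between the models, by the test of the difference itself, for Il4r (1.09), Il17ra (1.28), Il10rb (1.49), Ccl19 (2.01), Il18 (2.24), Cxcl16 (2.46) and Il21r (2.60), given as log2 KA change minus KI change.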

How the results depend on the processing

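Counts of called members depended on the test. DESeq2 called 1 in KA, 21 in KI and 15 between models, and limma-voom called 8, 42 and 35, with 3 between the shams. Shares of all genes moved too: DESeq2 called 1.90%, 22.2% and 8.37% of them (members 1.39%, 29.2% and 20.8%), and limma-voom 5.44%, 55.1%, 35.8% and 3.08% (members 11.1%, 58.3%, 48.6% and 4.17%). With a ribosomal protein covariate KA had 1 and KI 1, and the KI ligand median was -0.64. A filter of 1 CPM in 7 libraries gave a KI ligand median of -0.96 and 11 lower chemokine ligands among those tested; with each model fitted alone they were -0.56 and 14. Without KI sham 3 and 4, 3 members passed between models and 1 between shams; medians were -0.53 (KI ligands), -0.095 (KI receptors), 0.56 (ligands between models) and 0.11 (receptors between shams). Without KA 3 Class V 3 and KI sham 3, chosen after seeing the data, KI had 1 call and the comparison between models 0, with ligand medians of -0.57 and 0.25.

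Shared replicate numbers did not pair the libraries (correlations of -0.166 to 0.00907, none best with its own number); with the number as a block, 0 members passed in KI and 0 between models.

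Leaving out each library in turn gave 0 to 24 calls in KI, 0 to 14 between models and 0 to 0 in KA and between shams. Ligand medians ran from -0.15 to 0.18 (KA), -1.50 to -0.57 (KI), 0.71 to 1.47 (between models) and -0.35 to 0.02 (shams), and receptor medians from 0.23 to 0.49, -0.49 to -0.33, 0.57 to 0.74 and -0.27 to -0.09. Lower chemokine ligands in KI numbered 19 to 22, and higher interleukin receptors in KA 18 to 21.

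Signs of some uncalled log2 fold changes turned. In KA under limma-voom they were 0.92 (Ccl4), -0.10 (Cx3cl1), 1.01 (Il1b) and -0.21 (Il1r1), with 0.015 for Il6r in KI. With the replicate block, Ccl4 was 0.48 and Il1b 0.39 in KA. Under the ribosomal covariate, KA gave 0.16 (Ccl4), 0.076 (Cxcl14) and 0.52 (Il1b), and KI gave 0.098 (Cxcl14), -0.15 (Cx3cl1), -0.12 (Il16), 0.092 (Il33), -0.067 (Il34), -0.21 (Il1r1) and -0.099 (Il6st). Without KI sham 3 and 4, KI gave -0.16 (Il34) and 0.020 (Il6r), and the sham comparison 1.40 (Cxcl11), 0.68 (Csf2rb), 0.0044 (Csf2ra), 0.38 (Cx3cr1) and 0.79 (Socs3). Without KA 3 Class V 3 and KI sham 3, KA gave -0.28 (Cxcl13), -0.37 (Ccl2), 0.095 (Cxcl12), -0.11 (Cx3cl1) and -0.056 (Il1r1), and the shams 0.31 (Cxcl11) and 0.26 (Socs3). Leaving out each library, KA ranges were -0.28 to 3.08 (Cxcl13), -0.37 to 2.92 (Ccl2), -0.28 to 0.71 (Ccl4), -0.22 to 0.095 (Cxcl12), -0.18 to 0.069 (Cxcl14), -0.11 to 0.22 (Cx3cl1), -0.33 to 0.41 (Il1b) and -0.056 to 0.32 (Il1r1). KI ranges were -0.062 to 0.23 (Il34) and -0.20 to 0.58 (Il1r1), and sham ranges -2.39 to 0.31 (Cxcl11) and -0.81 to 0.25 (Socs3).

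Depth limits members under about 10 counts per library, and the cause of each change above was not tested.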
